A study of Mus musculus with 5 samples.

Results

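The genes described here control clotting and clot removal at the vessel wall: Vwf, F8, Tfpi, Thbd, Procr, Pros1 and Plat. They were chosen by name, and all 7 were found by Ensembl identifier among the 19127 genes of the expression table. The series measured polyadenylated RNA by sequencing in cells sorted from mouse blood on Ly6G, a neutrophil surface marker, after red cells were lysed. Animals were male, 7 to 10 weeks old, and were bled at Zeitgeber time 13. Both groups carried a Cre under the Mrp8 promoter, which drives expression mainly in neutrophils. One group was floxed at Bmal1 (gene symbol Arntl; genotype BMALf/f x Mrp8Cre; 2 libraries, numbered 2 and 3) and the other at Cxcr4 (CXCR4f/f x Mrp8Cre; 3 libraries, numbered 1, 2 and 3). Libraries are called below by the floxed gene of their label and their number. No group without a floxed gene was analysed here, so neither genotype can be given as the source of a difference. The labels do not say that the libraries came from separate animals, and a p-value here therefore measures spread between libraries that may be technical.

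As background, the endothelium both starts and restrains clotting. It stores von Willebrand factor, the protein that tethers platelets and carries factor VIII in plasma, and it blocks the tissue factor pathway at its surface. It also turns thrombin into an activator of protein C, a brake on the cascade, and releases tissue plasminogen activator, which starts fibrin breakdown. These roles are divided unevenly among vascular beds, and neutrophils are not known as a main source of most of these proteins.

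Depth and cell markers were read first. Recovered reads ran from 356872 in Cxcr4 library 1 to 9101826 in Cxcr4 library 3. A list of 18 pan-endothelial genes, none of them among the 7, was above 0 for every gene in every library and summed to between 0.667% and 1.51% of a column. Its 3 genes of highest mean normalised count were Kdr (2457), Cdh5 (1589) and Eng (747.7). A list of 16 neutrophil genes made up 1.19% and 0.811% in Bmal1 libraries 2 and 3, and 2.16%, 0.515% and 0.0431% in Cxcr4 libraries 1, 2 and 3. Ly6g, the gene of the sort marker, had 6.31 and 5.16 normalised counts in Bmal1 libraries 2 and 3 (21 and 23 reads). In Cxcr4 libraries 1, 2 and 3 it had 30.1, 0 and 1.05 (14, 0 and 9 reads). It is named after its values were seen. The sort gate was for neutrophils, and the labels name no endothelial cells. In a bulk library, fewer cells of a type and less RNA per cell cannot be told apart. The targeted genes were read beside the labels. Cxcr4 had 398.6 and 127.8 normalised counts in Bmal1 libraries 2 and 3, and 15.1, 72.2 and 4.80 in Cxcr4 libraries 1, 2 and 3. The groups did not overlap (log2 difference 3.58, SE 1.02, limma p 0.00735 unadjusted and 0.9999 adjusted). Of all 14632 genes tested, 4.18% had an unadjusted limma p under 0.05, and 13.6% were likewise higher in the Bmal1 libraries without overlap. Of the 16 neutrophil genes, 3 did not overlap in that direction and 1 in the other, so the Cxcr4 values do not check the genotype. Arntl had 4.81 and 27.6 in the Bmal1 libraries against 15.1, 1.90 and 1.05, which goes against its label, so groups are named by their labels throughout.

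The 7 genes fell into 3 patterns, and all but Procr followed the library number rather than the label. Vwf, Thbd and Plat were high in the libraries numbered 2 of both groups. F8, Tfpi and Pros1 were high in the libraries numbered 3 of both groups. Procr was low everywhere, with at most 24 reads in a library. These patterns were seen in the values and carry no test, and no label ties the numbers to an animal, day or batch.

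**Figure D1:**
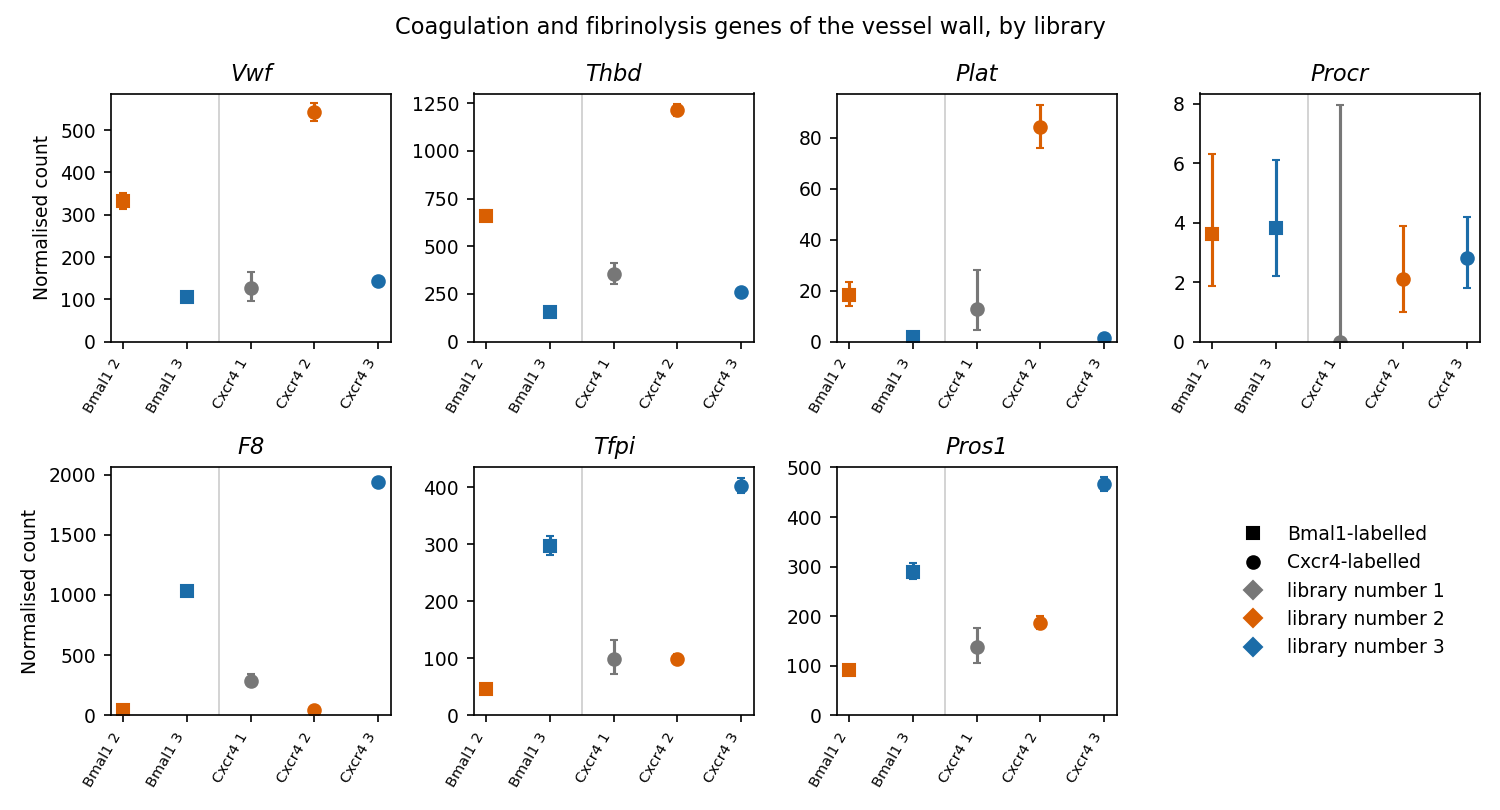
Normalised count (y axis, linear, from 0) of each of the 7 genes in each library (x axis, label of the floxed gene and library number); squares are Bmal1 and circles Cxcr4 libraries, colours give the library number, and bars are 95% Poisson intervals of the reads. Thbd is at 660.5 and 1213 in the libraries numbered 2 and at 155.4 and 258.6 in those numbered 3, while F8 is at 45.7 and 46.7 in the former and at 1032 and 1936 in the latter.

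Vwf encodes von Willebrand factor (chromosome 6, 125546774 to 125686679, plus strand of GRCm38, protein-coding). It had 331.9 and 106.5 normalised counts in Bmal1 libraries 2 and 3, and 127.0, 541.9 and 143.4 in Cxcr4 libraries 1, 2 and 3. Both libraries numbered 2 stood above the other 3, and the groups overlapped. Library 2 exceeded library 3 by 3.12-fold in the Bmal1 group (95% counting interval 2.80 to 3.48) and by 3.78-fold in the Cxcr4 group (3.53 to 4.05). These intervals, here and below, come from an exact binomial split of the reads of 2 libraries and cover counting error only. Between the groups, Vwf averaged 219.2 ± 159.4 (SD, n = 2) in the Bmal1 libraries and 270.8 ± 235.0 (SD, n = 3) in Cxcr4 libraries. On the log2(value + 1) scale, the Bmal1 mean minus the Cxcr4 mean was -0.19 (standard error, SE, 0.76), with a limma adjusted p of 0.9999. It reversed to 0.63 without Bmal1 library 3 and to 0.48 without Cxcr4 library 2.

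Platelets also carry Vwf RNA, so their markers were read beside it. A list of 14 platelet genes, which leaves Vwf out, took 0.0633% and 0.0474% of all normalised counts in Bmal1 libraries 2 and 3, and 0.0569%, 0.0321% and 0.0353% in Cxcr4 libraries 1, 2 and 3. Pf4, the platelet chemokine, stayed between 3.16 and 6.61 normalised counts in all 5. The 3 list genes with the highest mean were Nbeal2 (179.8), Clec1b (89.2) and Itgb3 (58.1), which other blood or endothelial cells also express. The median gene of the list was lower in library 3 than in library 2, as Vwf was, by -0.40 (log2) in the Bmal1 group and -0.53 in the Cxcr4 group. The share of the full list was lowest in Cxcr4 library 2, the library where Vwf was highest. The higher sum in Cxcr4 library 3 than in Cxcr4 library 2 rests on Clec1b, without which the list was at 0.0264% in library 2 and 0.0143% in library 3. Those shares are 258.8 and 152.1 normalised counts, and most of that fall rests in turn on 1 gene. This was Itga2b, the platelet integrin chain, at 93.5 in Cxcr4 library 2 against 2.34 in library 3. Gp1ba (6.33 against 17.3), Itgb3 (48.1 against 79.2) and Clec1b (56.4 against 224.4) went the other way in that pair. Of 13 list genes tested, 1 was at least 2-fold higher and 1 at least 2-fold lower in library 3 in both groups. Itga2b, Gp1ba and Pf4 were singled out after their values were seen, and the part of platelets in the Vwf values was not tested.

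Thbd encodes thrombomodulin, which binds thrombin and turns it into the activator of protein C (chromosome 2, 148404466 to 148408188, minus strand). Its values were 660.5 and 155.4 in Bmal1 libraries 2 and 3, and 353.0, 1213 and 258.6 in Cxcr4 libraries 1, 2 and 3. The libraries numbered 2 were again the highest of their group, with Cxcr4 library 1 between the other two. Library 2 exceeded library 3 by 4.25-fold (3.90 to 4.64) in the Bmal1 group and by 4.69-fold (4.47 to 4.93) in the Cxcr4 group. The group means were 407.9 ± 357.2 (SD, n = 2) and 608.2 ± 526.0 (SD, n = 3), and the difference was -0.58 (SE 0.82, limma adjusted p 0.9999). It was 0.46 without Bmal1 library 3 and 0.086 without Cxcr4 library 2.

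Plat encodes tissue plasminogen activator (chromosome 8, 22757727 to 22782844, plus strand). It had 18.3 and 1.79 normalised counts in Bmal1 libraries 2 and 3, and 12.9, 84.0 and 1.52 in Cxcr4 libraries 1, 2 and 3. The libraries numbered 3 held only 8 and 13 reads, and those numbered 2 held 61 and 398, so the fold is loosely fixed. Library 2 exceeded library 3 by 10.2-fold (4.87 to 24.7) and by 55.2-fold (31.9 to 104.6) in the Bmal1 and Cxcr4 groups. The group means were 10.1 ± 11.7 (SD, n = 2) and 32.8 ± 44.7 (SD, n = 3), with a difference of -0.97 (SE 1.51, limma adjusted p 0.9999). It was 0.43 without Bmal1 library 3 and 0.31 without Cxcr4 library 2.

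F8 encodes coagulation factor VIII, the cofactor of factor IXa, which is made in endothelial cells (chromosome X, 75172715 to 75382615, minus strand). It had 45.7 and 1032 normalised counts in Bmal1 libraries 2 and 3, and 288.4, 46.7 and 1936 in Cxcr4 libraries 1, 2 and 3. Both libraries numbered 3 stood far above those numbered 2, and Cxcr4 library 1 lay between. Library 3 exceeded library 2 by 22.6-fold (19.2 to 26.7) in the Bmal1 group and by 41.5-fold (36.3 to 47.6) in the Cxcr4 group. The groups averaged 538.9 ± 697.5 (SD, n = 2) and 757.2 ± 1028.4 (SD, n = 3), so each SD was above its mean. The difference was -0.44 (SE 1.61, limma adjusted p 0.9999), and it was 1.79 without Bmal1 library 2 and 0.90 without Cxcr4 library 3. Fundc2 and Gm6039 on the opposite strand and Gm8522 on the same strand overlap the gene's span. Without a stated strand setting, reads of the opposite strand cannot be told apart, and a strand setting would not separate those of Gm8522. Fundc2 stayed between 24.7 and 54.0 normalised counts, Gm6039 reached 7.60 and Gm8522 8.61.

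Tfpi encodes tissue factor pathway inhibitor, which blocks factor Xa and the complex of tissue factor with factor VIIa (chromosome 2, 84432855 to 84476775, minus strand). It had 46.3 and 297.6 in Bmal1 libraries 2 and 3, and 99.0, 98.0 and 402.8 in Cxcr4 libraries 1, 2 and 3. The libraries numbered 3 were highest, while Cxcr4 libraries 1 and 2 were within counting error of each other (72.5 to 132.1 against 89.2 to 107.3). Library 3 exceeded library 2 by 6.43-fold (5.44 to 7.64) and by 4.11-fold (3.73 to 4.54) in the Bmal1 and Cxcr4 groups. The group means were 171.9 ± 177.7 (SD, n = 2) and 199.9 ± 175.7 (SD, n = 3), and the difference was -0.42 (SE 0.89, limma adjusted p 0.9999). It was 0.91 without Bmal1 library 2 and 0.26 without Cxcr4 library 3.

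Pros1 encodes protein S, the cofactor of activated protein C and of tissue factor pathway inhibitor, and a ligand of the TAM receptor kinases (chromosome 16, 62854307 to 62929346, plus strand). Its values were 90.5 and 289.9 in Bmal1 libraries 2 and 3, and 137.8, 187.1 and 466.2 in Cxcr4 libraries 1, 2 and 3. The libraries numbered 3 were the highest of each group. Library 3 exceeded library 2 by 3.20-fold (2.82 to 3.64) and by 2.49-fold (2.32 to 2.68) in the Bmal1 and Cxcr4 groups. The group means were 190.2 ± 141.0 (SD, n = 2) and 263.7 ± 177.1 (SD, n = 3), with a difference of -0.50 (SE 0.69, limma adjusted p 0.9999). It was 0.34 without Bmal1 library 2 and 0.014 without Cxcr4 library 3.

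The sequences before the starts of Tfpi and Pros1 are shown because these genes moved together across libraries, and because the E-box that CLOCK and BMAL1 bind can be looked for in them. RefSeq promoters (GRCm38.p6) covered 4 of the 7 genes, F8, Tfpi, Procr and Pros1. An annotated exon reaches the upstream end of the F8 window, so that window is not printed. The window of Procr, a gene with few reads, is not printed either. Capitals mark every match, on either strand, to 1 of 5 motifs. These were the E-box CACGTG, the ETS motif GGAAGT, the motif AGATAA of GATA factors, the AP-1 motif TGANTCA and the KLF motif CACCC. Bases from the first annotated exon met in a window onwards were left out. Tfpi has 2 starts in RefSeq.
Tfpi, upstream start, chr2:84476776-84477009, minus strand: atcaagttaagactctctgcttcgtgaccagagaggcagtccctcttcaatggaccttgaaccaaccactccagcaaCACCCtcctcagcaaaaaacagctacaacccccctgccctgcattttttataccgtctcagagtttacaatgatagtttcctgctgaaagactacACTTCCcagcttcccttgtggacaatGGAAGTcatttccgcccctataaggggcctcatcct
Tfpi, downstream start, chr2:84474186-84474424, minus strand: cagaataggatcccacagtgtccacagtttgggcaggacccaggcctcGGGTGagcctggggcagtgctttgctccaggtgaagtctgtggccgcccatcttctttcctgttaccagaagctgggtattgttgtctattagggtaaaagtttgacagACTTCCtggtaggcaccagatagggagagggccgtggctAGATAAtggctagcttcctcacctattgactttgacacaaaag
Pros1, chr16:62854057-62854306, plus strand: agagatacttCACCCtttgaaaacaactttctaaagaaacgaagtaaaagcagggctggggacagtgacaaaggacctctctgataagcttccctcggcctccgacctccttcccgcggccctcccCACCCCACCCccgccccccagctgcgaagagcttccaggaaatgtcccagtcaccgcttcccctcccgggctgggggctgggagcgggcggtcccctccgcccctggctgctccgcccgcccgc

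In the 250 bases before a start, CACGTG was in none of the windows of these 4 genes, and 6.02% of all 32851 RefSeq promoter windows held it. GGAAGT or its reverse complement occurred in both Tfpi windows (2 matches before the upstream start and 1 before the downstream one) and in 19.7% of all windows. AGATAA occurred before the downstream Tfpi start and in 9.99% of all windows. TGANTCA occurred before Procr and in 6.75%. CACCC or its reverse complement occurred 3 times before Pros1, once before each Tfpi start and once before Procr, and in 52.0% of all windows. The F8 window held none of the 5 motifs. No motif match shared bases with a match to another motif in the printed runs. A match describes these letters and not a bound site.

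Procr encodes the endothelial protein C receptor, which presents protein C to thrombomodulin (chromosome 2, 155751117 to 155755471, plus strand). It had 3.61 and 3.81 normalised counts in Bmal1 libraries 2 and 3, and 0, 2.11 and 2.81 in Cxcr4 libraries 1, 2 and 3. These values rest on 12, 17, 0, 10 and 24 reads. The 0 in Cxcr4 library 1 allows up to 6.46 normalised counts (3 reads), above every other value. The groups did not overlap, which was so for 18.8% of the 14632 genes tested (13.6% higher and 5.22% lower in the Bmal1 libraries). The difference was 1.05 (SE 0.98, limma adjusted p 0.9999). Library 3 over library 2 was 1.06-fold (0.476 to 2.42) in the Bmal1 group and 1.33-fold (0.614 to 3.12) in the Cxcr4 group, and both counting intervals include no difference. Per kilobase of exon, Procr made up at most 0.746% of the summed level of the 7 genes in a library, and its partner Thbd at least 14.9%.

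Between the groups as a whole, none of the 7 genes passed the threshold of an adjusted p under 0.05. limma called 0 of 14632 genes (0% of those tested), and 612 genes (4.18%), none of the 7 among them, had an unadjusted p under 0.05. By edgeR the count was 0 after adjustment and 524 (3.58%) before it. DESeq2 called 13 (0.0888%), none of them among the 7, and 682 (4.66%) before adjustment, and it gave Procr no adjusted p. The smallest unadjusted limma p among the 7 was 0.316, that of Procr. The other 6 genes had negative differences and overlapping groups, and the median over the 7 was -0.44 against 0.11 over all genes tested. Leaving out 1 library turned the sign of each of these 6, and doing so also unbalances the library numbers. Within the numbers 2 and 3, Vwf, F8, Tfpi, Thbd and Pros1 were lower in the Bmal1 library in both pairs, 5 of the 7 genes against 29.8% of all genes. For F8 the libraries numbered 2 were within counting error (45.7 and 46.7), and their order reversed when columns were scaled to the same total or by median-ratio size factors. The pan-endothelial sum was also lower in the Bmal1 library of both pairs, at 0.667% against 1.22% and 0.900% against 1.51%. With the number as a block, limma gave all 6 genes negative differences and called none, with the lowest adjusted p at 0.282 (Thbd; unadjusted p 0.0225) and 0.296 (Pros1; unadjusted p 0.0277). An unadjusted p under 0.05 was reached there by 2 of the 7 genes and by 14.9% of all genes. Of the 18 pan-endothelial genes, 1 had a positive and 17 a negative difference (median -0.51), and of 13 platelet genes tested 10 were positive and 3 negative (median 0.27), with none called in either list.

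**Figure D2:**
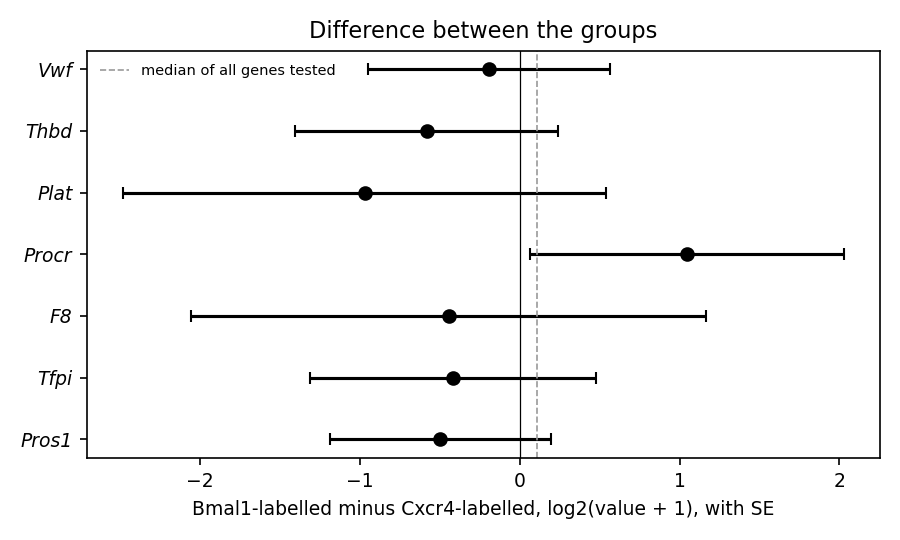
Difference between the groups for each gene (x axis, log2(value + 1), Bmal1-labelled minus Cxcr4-labelled); points are limma estimates from 2 and 3 libraries, bars are 1 SE, and the dashed line is the median of all genes tested. The estimates run from -0.97 (Plat) to 1.05 (Procr), and the widest bar, of 1.61, is that of F8.

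The contrast of library numbers can be set beside all genes. On the log2(value + 1) scale, 3 of the 7 genes were at least 2-fold higher in library 3 than in library 2 in both groups, as were 8.11% of the 14632 genes tested. At least 2-fold lower in both groups were 3 of the 7, and 6.0% of all genes. Cxcr4 library 1 lay between libraries 2 and 3 of its group for F8, Tfpi, Thbd and Plat, as it did for 28.1% of all genes. None of the 7 moved 2-fold in opposite directions in the groups, as 3.92% of all genes did. This contrast was given no test, since it was seen in the values first and no label says what the number stands for.

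**Figure D3:**
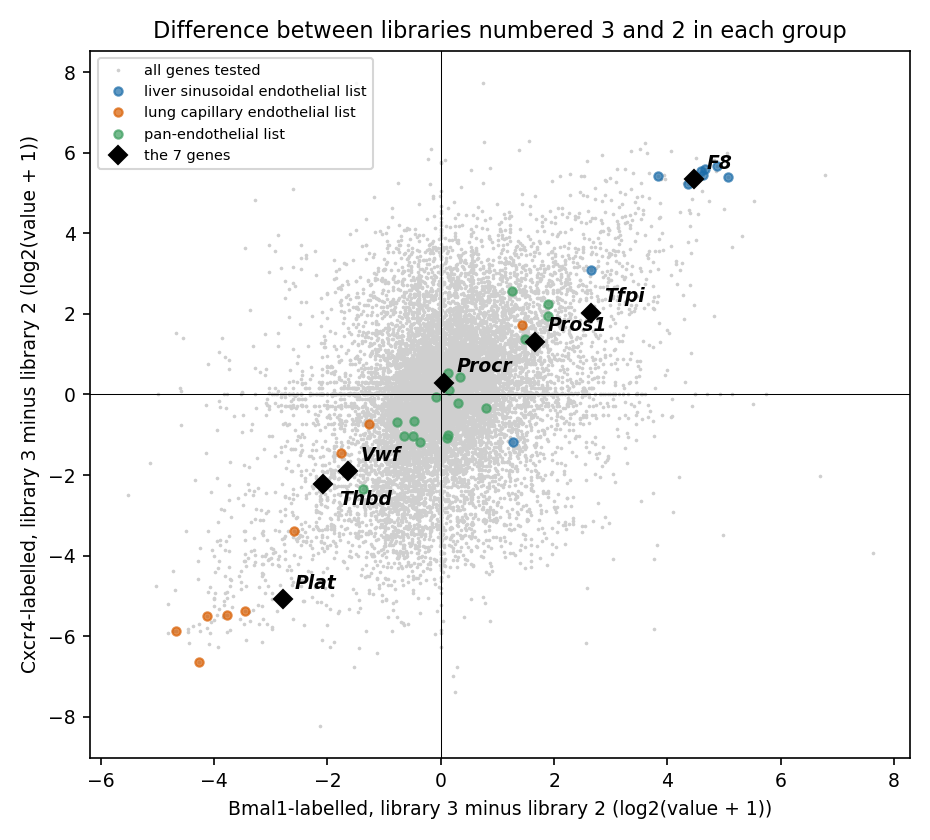
Log2(value + 1) of library 3 minus library 2 in the Bmal1 group (x axis) and in the Cxcr4 group (y axis); grey points are all genes tested, coloured points are 3 endothelial marker lists, and black diamonds are the 7 genes. F8, Tfpi and Pros1 lie at 4.47, 2.66 and 1.67 on the x axis and 5.35, 2.03 and 1.31 on the y axis, and Vwf, Thbd and Plat lie below 0 on both.

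Markers of 2 vascular beds, and of hepatocytes and mural cells, moved with these contrasts. A list of 9 liver sinusoidal endothelial genes took 0.0773% and 1.36% of all normalised counts in Bmal1 libraries 2 and 3, and 0.470%, 0.134% and 2.07% in Cxcr4 libraries 1, 2 and 3. Of these, 8 of 9 were at least 2-fold higher in library 3 in both groups and none was lower, the exception being Lyve1 (151.2 and 367.1, and 105.5, 692.0 and 302.8). A list of 9 lung capillary endothelial genes summed to 0.343% and 0.0852%, and to 0.203%, 0.579% and 0.143%, in the same order. Of these, 7 of 9 were at least 2-fold lower in library 3 in both groups, and Gpihbp1 was higher. Lyve1, Gpihbp1 and Flt4 are named after their values were seen. No gene of either list was at 0 in any library. The high libraries for F8, Tfpi and Pros1 were thus those with the largest sinusoidal sums, and the high libraries for Vwf, Thbd and Plat those with the largest lung capillary sums. The part of these cell types in the values of the 7 genes was not tested. Pan-endothelial genes were less divided, with 4 of 18 at least 2-fold higher and 1 lower in library 3 in both groups. Other lists were also read. Lymphatic endothelial genes summed to 0.103% and 0.138% in the libraries numbered 3 and to between 0.0130% and 0.0345% in the other 3. This division rests on Flt4, without which the sums of the other 5 genes were between 0.00152% and 0.00364%. Large-vessel genes summed to 0.0304% and 0.0521% in Bmal1 libraries 2 and 3, and to 0.0317%, 0.0385% and 0.0658% in Cxcr4 libraries 1, 2 and 3. This list was split, with 2 of 10 at least 2-fold higher and 3 lower in library 3 in both groups. The higher were Ephb4 and Nr2f2 and the lower Gja5, Sox17 and Hey1, named after their values were seen. Hepatocyte genes also moved with the numbers, from 0.00192% in library 2 to 0.0330% in library 3 of the Bmal1 group and from 0.00129% to 0.0110% in the Cxcr4 group, with 0.0163% in Cxcr4 library 1. Of 7 tested, 4 were at least 2-fold higher in library 3 in both groups and none was lower. Mural and fibroblast genes moved the other way, from 0.0246% to 0.00616% and from 0.0202% to 0.00657%, with 0.0258% in Cxcr4 library 1. Of 9 tested, 4 were at least 2-fold lower in library 3 in both groups and none was higher. Monocyte and macrophage genes were at 0.0442% and 0.0292% in Bmal1 libraries 2 and 3, above the 0.0261%, 0.00788% and 0.00713% in Cxcr4 libraries 1, 2 and 3. Of 10 tested, 3 were at least 2-fold higher and 1 lower in library 3 in both groups. The higher ones were Cd5l, Clec4f and Vsig4 and the lower one Ly6c2, named after their values were seen. The part of these cells was not tested either.

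Relative to the pan-endothelial sum the same division held, but that sum also differed between the numbers. It was 5753 and 8192 in Bmal1 libraries 2 and 3, and 11973 and 16099 in Cxcr4 libraries 2 and 3. Kdr, its gene of highest mean, had 722.4 and 2674, and 1579 and 6062, in the same order. Of its 18 genes, 4 were at least 2-fold higher and 1 lower in library 3 in both groups, so the shares depend on the genes summed. F8 equalled 0.794% and 0.390% of that sum in the libraries numbered 2 (Bmal1-labelled, then Cxcr4-labelled), and 12.6% and 12.03% in those numbered 3. Thbd equalled 11.5% and 10.1% in the libraries numbered 2, and 1.90% and 1.61% in those numbered 3. For Thbd, and for F8 in the libraries numbered 3, libraries of the same number were thus close to each other across the labels. The F8 shares in the libraries numbered 2 were less alike. For both genes, the libraries numbered 2 and 3 of 1 label were far apart. Cxcr4 library 1 lay between, with 5.05% for F8 and 6.18% for Thbd. Vwf ran from 0.891% to 5.77%, Tfpi from 0.805% to 3.63%, and Pros1 only from 1.56% to 3.54%.

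Levels of different genes were compared per kilobase of exon, within a library. Thbd made up 74.5% and 73.6% of the 7 genes' summed level per kilobase in the libraries numbered 2 (Bmal1-labelled, then Cxcr4-labelled), and 51.0% in Cxcr4 library 1. F8 led in the libraries numbered 3, with 37.2% and 42.2%, followed by Pros1 with 25.3% and 24.6%. The carrier and its cargo changed places: per kilobase, Vwf stood 4.48-fold and 7.16-fold above F8 in the libraries numbered 2, and F8 stood 15.7-fold and 21.9-fold above Vwf in those numbered 3. In Cxcr4 library 1 F8 was 3.68-fold above Vwf. Procr and Plat were the lowest pair in every library but Cxcr4 library 2, where Procr and F8 were. Taking the longest annotated transcript as the length kept the leading gene in 5 of 5 libraries and the full order in 3, since Vwf and Pros1 exchanged places in the libraries numbered 2.

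**Figure D4:**
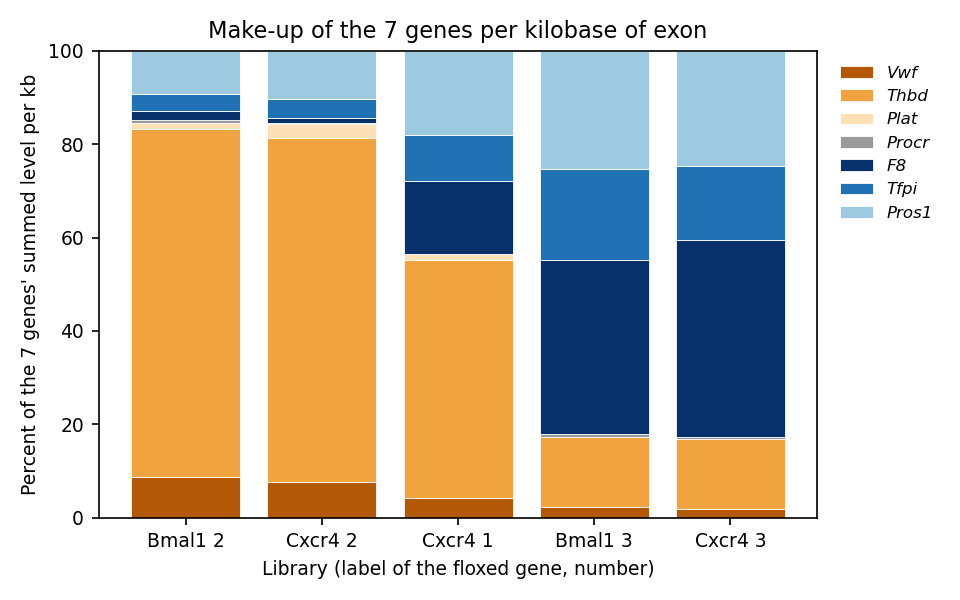
Share of each gene in the summed level per kilobase of exon of the 7 genes (y axis, percent, stacked from 0 to 100) in each library (x axis, ordered by number 2, 1 and 3). Thbd takes 74.5% and 73.6% in the libraries numbered 2 and 14.9% and 15.0% in those numbered 3, where F8 takes 37.2% and 42.2%.

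The other genes of the pathway were read from lists drawn up by function, with no gene called in any of them. Beyond the genes of highest mean per list, F3, Edn1, Cd63 and Selp are named after their values were seen. Of 24 genes of the vessel wall that act beside the 7 (other inhibitors and receptors of coagulation and fibrinolysis, prostacyclin and nitric oxide synthesis, cofactor processing), 21 were tested, with 7 positive and 14 negative differences and a median of -0.46. The 3 of highest mean value were F2r (232.6), Entpd1 (209.8) and Anxa2 (190.8). F2r, the thrombin receptor PAR1, had 35.2 and 321.1 in Bmal1 libraries 2 and 3, and 81.8, 67.1 and 657.6 in Cxcr4 libraries 1, 2 and 3, with both libraries numbered 3 on top. Entpd1, an ectonucleotidase that breaks down the platelet agonist ADP, had 381.2 and 178.3 against 204.5, 226.5 and 58.7. Anxa2, part of a cell-surface assembly site for plasminogen and its activator, had 311.2 and 239.0 against 217.4, 100.7 and 85.5, without overlap (difference 1.14, SE 0.53, limma adjusted p 0.9999). In this list 3 genes were at least 2-fold higher and 5 lower in library 3 in both groups. F3, the tissue factor gene, had 1 read in Cxcr4 library 2 and 0 in the other 4 libraries.

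Genes of the Weibel-Palade body, the granule that stores von Willebrand factor, were also read. Of 12 listed, 11 were tested, 5 with positive and 6 with negative differences, and the median was -0.14. Among those of highest mean were Vamp3 (102.0) and Rab27a (79.5), which encode parts of the secretory machinery found in many cells. None of the list was at least 2-fold higher in library 3 in both groups, and 2 were lower. These were Edn1, the endothelin precursor (61.3 and 5.38, against 17.2, 182.2 and 11.6), and Cd63 (37.0 and 14.4, against 23.7, 37.4 and 7.96), both given for Bmal1 libraries 2 and 3 and then Cxcr4 libraries 1, 2 and 3. Selp, the P-selectin gene, went another way, with 128.0 in Cxcr4 library 3 and between 8.12 and 13.9 in the other 4 libraries.

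Receptors that clear or bind these proteins were led by 2 scavenger receptors. Of 7 clearance receptors listed, 5 were in the table and 4 were tested, with 1 positive and 3 negative differences and a median of -0.36. Stab2, reported in mice to clear von Willebrand factor with its factor VIII cargo, had 121.5 and 4096 normalised counts in Bmal1 libraries 2 and 3, and 1124, 140.0 and 5907 in Cxcr4 libraries 1, 2 and 3. Stab1 had 149.1 and 1901, and 508.0, 220.6 and 2332, so both were highest where F8 was. Stab2 is also 1 of the 9 genes of the liver sinusoidal list. Lrp1, which binds factor VIII, had between 20.1 and 60.3. The 4 genes of the protein S receptor list had 2 positive and 2 negative differences. Mertk, a TAM receptor, had 84.5 and 291.0 in Bmal1 libraries 2 and 3, and 150.7, 268.1 and 782.5 in Cxcr4 libraries 1, 2 and 3. Gas6, the other TAM ligand, had 36.4 and 120.4, and 77.5, 27.4 and 360.3, highest in library 3 of each group as Pros1 was. Axl stayed between 0.844 and 21.8.

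Clotting factors made mainly by hepatocytes formed the last list. Of 22 listed, 15 were in the table and 12 were tested, with 7 positive and 5 negative differences and a median of 0.63. Their sum was between 0.00597% and 0.0151% of all normalised counts, and that of the 7 genes, not corrected for length, between 0.133% and 0.301%. The highest mean normalised count was that of F5 (45.0), followed by F13a1 (11.1) and Fgb (8.87). F5 and F13a1 are also expressed in blood cells. Fgb, a fibrinogen chain, had 0.601 and 20.6 in Bmal1 libraries 2 and 3, and 10.8, 1.69 and 10.7 in Cxcr4 libraries 1, 2 and 3. In both groups it was higher in library 3 than in library 2, and its value in Cxcr4 library 1 rests on 5 reads.

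The genes with the most similar profiles were found by the root mean square distance between log2(value + 1) profiles centred over the 5 libraries, among 8721 genes with a mean of at least 10 CPM (reads scaled to a common library total). For F8 they were Dnase1l3 (distance 0.092), Mrc1 (0.11) and Tmem64 (0.14). Dnase1l3 and Mrc1 belong to the liver sinusoidal list. Dnase1l3 had 90.2 and 2244 in Bmal1 libraries 2 and 3, and 669.4, 101.8 and 4505 in Cxcr4 libraries 1, 2 and 3. For Thbd they were Ghr (0.069), Slc39a6 (0.12) and Nectin3 (0.12), for Vwf Dpysl2 (0.11), Cyth3 (0.17) and Ptprk (0.21), and for Plat Dpysl5 (0.14), Cacna1c (0.18) and Tmtc1 (0.20). For Tfpi they were Snx2 (0.12), Mcm6 (0.12) and Mcm3 (0.15), and for Pros1 Slf2 (0.069), Plxnb2 (0.071) and Fancc (0.074). For Procr they were Med1 (0.10), Gm13532 (0.12) and Spg11 (0.12), a profile set by the 0 in Cxcr4 library 1. Among the 7 themselves the closest pairs were Vwf with Thbd (0.31) and Tfpi with Pros1 (0.39), and the farthest was F8 with Plat (4.02). With 5 libraries, small distances are found for many genes, so they describe these libraries only.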

How the data were processed

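The members and gene lists were chosen with earlier results of these data known. The values are normalised read counts deposited by the authors, a non-negative signal per gene; per the submitters' processing notes CASAVA 1.8.2, cutadapt, RSEM 1.2.3 and GRCm38 were named, with no role or order. The authors' normalisation, annotation and strand setting were not given in the sources used here. Dividing each column by its smallest value above 0 gave whole reads (within 0.01) for 100% of genes, with totals of 2869625 and 4058914 (Bmal1 libraries 2 and 3) and 356872, 4646391 and 9101826 (Cxcr4 libraries 1, 2 and 3). Of 19127 identifiers 18847 matched a symbol; positions and lengths are from GENCODE M21. limma 3.58.1 (R 4.3.3) with an intensity trend was fitted to log2(value + 1) of 14632 genes whose mean CPM reached 1, two-sided, Benjamini-Hochberg adjusted over all of them; 3 residual degrees of freedom were joined by 5.36 from the prior. edgeR 4.0.16 (quasi-likelihood) and DESeq2 1.42.0 ran on recovered reads. These scripts were tested on simulated data. Named genes are the members, both targeted genes, up to 3 of highest mean per pathway list and per pan-endothelial and platelet list, and the 3 most similar genes per member. Of the genes this rule names, 1 is not reported here. Others are marked as chosen after their values were seen. The list sums without Flt4 or Clec1b and the comparison within library numbers were added after seeing the data. Libraries were not paired and none duplicated another (chi-square per degree of freedom 23.5 to 162.5 within groups). Without molecular identifiers, reads can be copies of 1 molecule, so intervals and floors (3 reads) cover counting error only.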

Additional observations from a re-analysis of the deposited data

How the results depend on the processing

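None of the 7 genes passed the threshold under any alternative run, and no adjusted p was below 0.282 (limma with the number as a block). DESeq2 gave Procr no adjusted p, so Procr was not set against the threshold there. The count of called genes was 0 with limma and edgeR in all settings, and 13 with DESeq2. All 7 differences kept their sign under the pseudocounts of 0.5 and 5, no filter, 3 other scalings, no trend, edgeR and DESeq2; Procr was not tested when a mean CPM of 10 was required, where the other 6 kept their sign. Signs turned when libraries were left out. Without 1 library in turn the differences ran from -1.005 to 0.63 (Vwf), -2.68 to 1.79 (F8), -1.75 to 0.91 (Tfpi), -1.62 to 0.46 (Thbd), 0.45 to 1.42 (Procr), -1.33 to 0.34 (Pros1) and -2.37 to 0.43 (Plat). Without both libraries numbered 3, Vwf was at 0.34 and Thbd at 0.013, and without Cxcr4 libraries 1 and 3, F8 was at 2.20 and Tfpi at 0.26. The median of the 7 ran from -0.75 to 0.43 without 1 library. Where 1 library was left in a group, it was assumed to vary like the other. The median over all genes tested was 0.11, and -0.044 with quantile normalisation, -0.086 with edgeR and -0.099 with DESeq2.

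Numbers 2 and 3 are shared by the groups, but what they stand for is unlabelled, so the pairing is unproved. Across 14632 genes the deviations from group means correlated at 0.28 for the libraries numbered 2 and 0.39 for those numbered 3. With 2 Bmal1 libraries these deviations mirror each other, so both values rest on the same Bmal1 difference and do not test the pairing. Cxcr4 library 1 correlated at 0.13 with Bmal1 library 2 and at -0.13 with Bmal1 library 3. With number as a replicate block the differences were -0.57 (Vwf), -0.47 (F8), -0.75 (Tfpi), -0.80 (Thbd), 0.45 (Procr), -0.86 (Pros1) and -0.99 (Plat), with a median of -0.75 and 0 genes called.

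The differences between libraries 3 and 2 kept their sign in both groups under 2 other scalings and a pseudocount of 5, chosen after seeing the data, except for Procr in the Bmal1 group, at 0.063 and at -0.010 with median-ratio size factors. With a pseudocount of 5, 665 genes were at least 2-fold higher and 480 lower in library 3 in both groups, against 1186 and 878; at 4-fold they were 390 and 311. Depth limited Procr and Plat most, with at most 24 and 398 reads in a library.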
